A study of Homo sapiens with 9 samples.

Results

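The comparison set LNCaP cells growing in full serum against LNCaP cells that had been deprived of androgen and then given the androgen dihydrotestosterone (DHT). LNCaP is a human prostate cancer cell line whose growth depends on androgen. The 2 arrays were chosen by their labels alone, out of 9 arrays in the series, 1 for each group. The serum-grown cells, called steady state in the labels, were kept in RPMI medium with 10% fetal bovine serum. The DHT cells were washed free of serum, kept for 48 h in medium with 5% charcoal-stripped serum, and then exposed for 16 h to DHT at 100 nM. A deprived control array, from cells deprived in the same way but not given DHT, is shown beside both. No treatment time after the deprivation is recorded for it. All 3 carry no transfected vector and no inhibitor. The sides therefore differ in serum amount, in stripping of the serum, in washing, in the time of deprivation and in the DHT dose, and these cannot be told apart with 1 array a side. The other 6 arrays came from deprived cells given DHT after 100 µM etoposide or merbarone, and from deprived cells transfected with an sh-control or sh-TOP2B vector, with or without DHT, and sorted for a fluorescent protein. The arrays of transfected cells served to estimate the spread, together with the DHT and deprived control arrays. The etoposide and merbarone arrays each had their own term in the fit, so the spread did not come from them. All 6 also served as levels side by side.

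Charcoal removes steroids and other small lipophilic molecules from serum, so cells in stripped serum lack androgen, and DHT gives the androgen receptor its ligand back. The receptor then binds DNA and raises secretory genes such as the kallikreins KLK2 and KLK3, the latter encoding prostate-specific antigen. Androgen and serum growth factors both drive the entry of LNCaP cells into the cell cycle, which runs from the G1 cyclins over DNA replication to mitosis. Deprived cells leave the cycle, and genes of mitosis and replication are silenced together by repressor complexes at their promoters. NF-kB is the transcription factor that switches on chemokines, cytokines and its own inhibitors.

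Values are log2 RMA levels, and a difference is the steady-state level minus the DHT level, so positive values are higher in steady state. A gene passed the test where the limma adjusted p was below 0.05. With 1 array a group, the standard error (SE) comes from how far the 3 DHT effects of the series (inhibitor series, sh-control, sh-TOP2B) differ from each other. Levels below the median of their own array (5.63 for steady state, 5.66 for the deprived control and 5.65 for DHT) are called dim. A fold that rests on a dim level was taken from the array median and is given as "at least". The adjusted p beside it belongs to the difference as deposited. The medians of the 9 arrays lay between 5.61 and 5.72, and array quality differed little between the compared arrays. The 3' minus 5' difference of the beta-actin control probe sets was 0.70 on the steady-state array, 0.46 on the DHT array and 0.47 on the deprived control array, against 2.38 to 3.09 on the arrays of sorted cells. Whether it bears on the differences was not tested.

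Growth in serum and DHT treatment after deprivation left the cells far apart, while DHT alone moved few genes in the same series. The SD of the difference over the 11865 genes tested was 0.85 for steady state minus DHT, 0.90 for steady state minus deprived control and 0.22 for DHT minus deprived control. Of the genes tested, 2945 (24.8%) passed the test between steady state and DHT. In steady state 1595 of them (13.4%) were higher and 1350 (11.4%) lower. Differences of at least 1 numbered 614 higher (5.17%) and 740 lower (6.24%). Against the deprived control, 3336 genes (28.1%) passed, 1859 (15.7%) higher and 1477 (12.4%) lower in steady state, and differences of at least 1 numbered 765 higher (6.45%) and 800 lower (6.74%). By the same size, DHT against the deprived control gave 29 genes higher (0.244%) and 5 lower (0.0421%). These comparisons share arrays, so their counts are set side by side only.

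**Figure D1:**
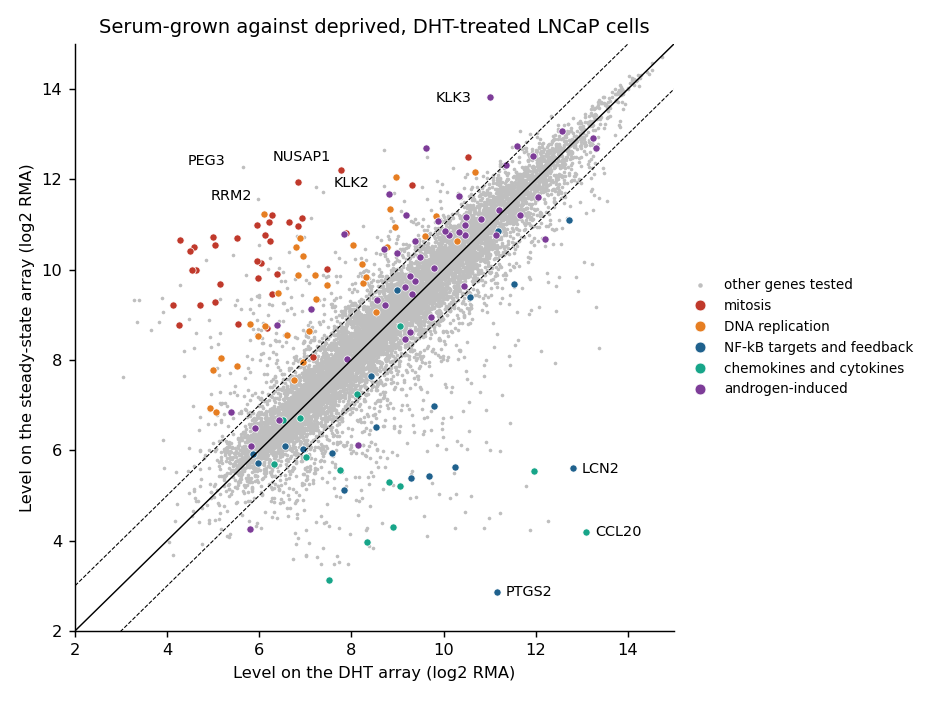
Level of each of the 11865 genes tested on the DHT array (x axis, log2 RMA) and on the steady-state array (y axis, log2 RMA), 1 array a side; the solid line marks equal levels and the dashed lines a log2 difference of 1. Mitosis genes such as NUSAP1 lie above the upper dashed line, and CCL20, LCN2 and PTGS2 lie far below the lower one.

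Mitosis genes were far higher in serum-grown cells, with a median difference of 4.43 over the 35 members tested. All 35 passed the test in that direction, where 13.4% of the genes tested did. The 5 listed members left out by the filter on low values (SGO1, CKAP2L, KIF23, ASPM and TTK) differed by 3.04 to 5.36 in the same direction. The smallest difference among the tested members was that of CENPA, the centromeric histone, at 0.91. The median level of the 35 was 10.50 on the steady-state array, 5.95 on the deprived control array and 6.03 on the DHT array, and 14 of them were dim on the DHT array. After 16 h of DHT their levels lay near those of the deprived control. Of the 17 members that were dim on none of the 3 arrays and had a gap of at least 1 between steady state and deprived control, 15 had covered under 10% of that gap on the DHT array. Where a level is dim no share is given.

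NUSAP1, a microtubule-binding protein of the spindle, stood at 11.95 in steady state, 6.70 in deprived control and 6.84 in DHT-treated cells. It was 34.5-fold higher in steady state than with DHT (difference 5.11, SE 0.16, adjusted p = 2.69e-05). NDC80, which links the kinetochore to microtubules, stood at 10.70, 5.29 and 5.51 in the same order and was at least 33.2-fold higher (adjusted p = 3.70e-05). HMMR, a spindle-associated hyaluronan receptor, stood at 10.98, 6.17 and 5.94, which is 33.0-fold higher (difference 5.04, SE 0.26, adjusted p = 7.56e-05). In each of them the deprived control and the DHT array lay near each other and far below the steady-state array. The promoters of these 3 genes are shown because they are the mitosis genes with the largest rise and a promoter entry. Each run covers 250 bases before to 50 bases after the RefSeq start of the gene (build GRCh38.p14), 5′ to 3′. Capitals mark the letters of the cell cycle homology region (CHR, searched as TTTGAA and TTCGAA) and of the CCAAT box, on either strand; both elements are known from promoters of mitosis genes.
NUSAP1 (chr15:41332631-41332930, + strand): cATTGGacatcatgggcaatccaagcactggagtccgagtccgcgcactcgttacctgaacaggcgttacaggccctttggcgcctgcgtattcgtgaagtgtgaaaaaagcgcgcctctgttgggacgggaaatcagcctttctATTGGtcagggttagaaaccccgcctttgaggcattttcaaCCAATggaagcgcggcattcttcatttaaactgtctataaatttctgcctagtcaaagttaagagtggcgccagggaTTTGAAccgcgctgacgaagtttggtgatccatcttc
NDC80 (chr18:2571307-2571606, + strand): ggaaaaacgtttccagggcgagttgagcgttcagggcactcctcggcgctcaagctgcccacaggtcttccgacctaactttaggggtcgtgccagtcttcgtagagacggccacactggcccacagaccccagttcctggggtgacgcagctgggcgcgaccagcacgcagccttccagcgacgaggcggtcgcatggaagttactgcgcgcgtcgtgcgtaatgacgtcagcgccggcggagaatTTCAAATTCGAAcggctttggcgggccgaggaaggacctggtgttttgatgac
HMMR (chr5:163460382-163460681, + strand): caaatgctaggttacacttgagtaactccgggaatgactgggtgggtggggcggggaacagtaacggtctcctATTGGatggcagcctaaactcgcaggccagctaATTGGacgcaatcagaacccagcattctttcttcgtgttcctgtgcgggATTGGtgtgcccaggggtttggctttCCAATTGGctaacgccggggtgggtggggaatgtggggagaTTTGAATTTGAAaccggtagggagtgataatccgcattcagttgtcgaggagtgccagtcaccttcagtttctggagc

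NUSAP1 held 1 CHR match, starting 13 bases after the start, and 3 CCAAT matches. NDC80 held 2 CHR matches that lie side by side at the start, and no CCAAT match in this window. HMMR held 2 CHR matches in a row, at -28 and -22, and 5 CCAAT matches, of which those at -69 and -66 overlap. Both strands were searched, and TTCGAA reads the same on both. Over the 31 mitosis genes with a promoter entry, 23 windows (74.2%) held a CHR match, where 10.7% of the 9702 windows of genes tested and 16.6% of all 27305 windows did. A CCAAT match was present in 25 of the 31 (80.6%), against 36.9% of the windows of genes tested. A match describes the letters only.

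The other mitosis genes with the largest differences repeated the pattern. BIRC5, which encodes the inhibitor of apoptosis survivin of the chromosomal passenger complex, stood at 10.71 in steady state, 4.84 in deprived control and 4.98 with DHT, at least 33.4-fold higher (adjusted p = 2.42e-05). NEK2, a centrosome kinase, stood at 10.66, 3.80 and 4.27, at least 32.1-fold higher (adjusted p = 4.60e-05). TOP2A, the topoisomerase II that separates sister chromosomes, stood at 10.42, 4.42 and 4.50 and was at least 27.2-fold higher (adjusted p = 4.11e-05). Its paralog TOP2B, which is expressed throughout the cycle, stood at 10.44, 10.55 and 10.57 and did not pass (difference -0.13, SE 0.17, adjusted p = 0.666). CENPF, ANLN, CCNB2, KIF20A and PBK, a mitotic kinase gene on none of the lists, were also among the 12 largest rises of all genes, by 28.8-fold (at least, KIF20A) to 48.4-fold (PBK). MKI67, the proliferation marker Ki-67, stood at 8.71, 5.28 and 6.17 and was 5.83-fold higher (difference 2.54, SE 0.28, adjusted p = 0.0016). CCNB1, the cyclin that starts mitosis, was higher by 2.57 (SE 0.17), and its kinase CDK1 by 1.97 (SE 0.10), with levels of 12.50, 10.39 and 10.54. Probe sets of 1 gene did not always move alike. Those of CENPF ranged from -0.04 to 4.93 and those of CCNB2 from -0.05 to 4.86. Those of BIRC5 ranged from 1.66 to 5.73 and those of TOP2A from 0.62 to 7.47. The folds, also those given as "at least", hold for the probe set with the highest mean.

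The kinetochore and centromere list, which shares BUB1, BUB1B, CENPA, CENPE, CENPF, NDC80, NUF2 and TTK with the mitosis list and was put together after values were seen, gave 25 of 25 tested members higher, with a median of 3.19. The share higher over all genes tested was 13.4%. The CENPA-loading factor HJURP was at least 9.45-fold higher, and CENPU differed by 4.60 (SE 0.19). CENPA, CENPL, CENPO and CENPQ, with differences below 1, lost their calls when the sh-control or the sh-TOP2B pair was left out of the spread.

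DNA replication genes were also higher in serum-grown cells, by a median of 2.15 over the 34 members tested. The test was passed by 32, all higher, where 13.4% of all genes tested passed higher. RFC5 (0.34, SE 0.12) and CHAF1A (0.54, SE 0.25) did not pass. Median levels were 9.78 in steady state, 6.98 in deprived control and 7.01 with DHT. RRM2, the regulated subunit of the ribonucleotide reductase that makes deoxynucleotides, stood at 11.24, 5.84 and 6.09 and was 35.5-fold higher (difference 5.15, SE 0.21, adjusted p = 3.70e-05). GINS1, a subunit of the replicative helicase complex, stood at 10.70, 6.65 and 6.87 (difference 3.83, SE 0.18, adjusted p = 5.58e-05). TYMS, which makes thymidylate, stood at 12.06, 9.17 and 8.96 (difference 3.10, SE 0.15, adjusted p = 6.66e-05). In all of them the DHT array sat near the deprived control. The clamp loader gene RFC3 was higher by 3.71 (SE 0.31) and thymidine kinase TK1 by 3.36 (SE 0.20). The 6 subunits of the MCM helicase, MCM2 to MCM7, differed by 2.51, 1.91, 2.12, 3.07, 1.16 and 1.74 in that order, and PCNA, the sliding clamp, by 1.48. The probe sets of TYMS ranged from 0.11 to 3.40 and those of RFC3 from 0.50 to 3.71. An E2F site (TTTCGCGC or TTTGGCGC, either strand) was present in 8 of 31 replication gene windows (25.8%), against 2.02% of the windows of genes tested.

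Of 17 tested genes of homologous recombination and Fanconi anaemia repair, 13 passed, all higher, where 13.4% of all genes tested did. This list was also put together after values were seen, and its median was 2.06. DTL, which targets licensing factors for degradation, was at least 23.7-fold higher, and BRCA1 stood at 9.22, 5.92 and 5.99 (difference 3.22, SE 0.28, adjusted p = 5.98e-04). BARD1, the partner of BRCA1, stood at 11.23, 11.50 and 11.49 and did not pass (adjusted p = 0.517), nor did FANCL, CHEK1 or XRCC2.

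Genes of G1 control were split. Of 23 tested, 11 passed higher and 1 lower (13.4% and 11.4% of all genes tested did), with a median of 0.50. FOXM1, the transcription factor that drives mitosis genes, stood at 9.21 in steady state, 5.42 in deprived control and 5.48 with DHT, at least 11.8-fold higher (adjusted p = 9.95e-05). The repressor E2F7 was at least 3.91-fold higher. SKP2, which marks the inhibitor p27 for degradation, was higher by 2.31 (SE 0.15), CDK2 by 2.16 (SE 0.20), CCNE2 by 2.02 (SE 0.33) and MYBL2 by 1.82 (SE 0.25). MYC stood at 11.96, 11.02 and 11.21 and was 1.68-fold higher (difference 0.75, SE 0.13, adjusted p = 0.008). CCND1, the cyclin that growth factors induce, stood at 10.82, 10.62 and 10.82, and its difference of 0.00 did not pass (SE 0.13). CDKN1A, the inhibitor p21, stood at 10.72, 11.62 and 11.25 (difference -0.54, SE 0.19, adjusted p = 0.0853). CDKN2B, the inhibitor p15, was the 1 member lower, at 4.06, 7.37 and 6.85, at least 2.33-fold (adjusted p = 0.00132).

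The histone probe sets ran against the replication genes. Of the 10 tested, 8 passed lower and none higher, with a median of -0.71, where 11.4% of the genes tested were lower; H4C8 stood at 10.09, 11.79 and 11.50 (difference -1.42, SE 0.12) and H2BC4 at 9.05, 10.78 and 10.42 (difference -1.36, SE 0.15). Histone genes share sequence, so the member a probe set measures is uncertain, and the 4 other members measured were too dim to be tested. Which forms of histone mRNA these probe sets read was not tested.

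**Figure D2:**
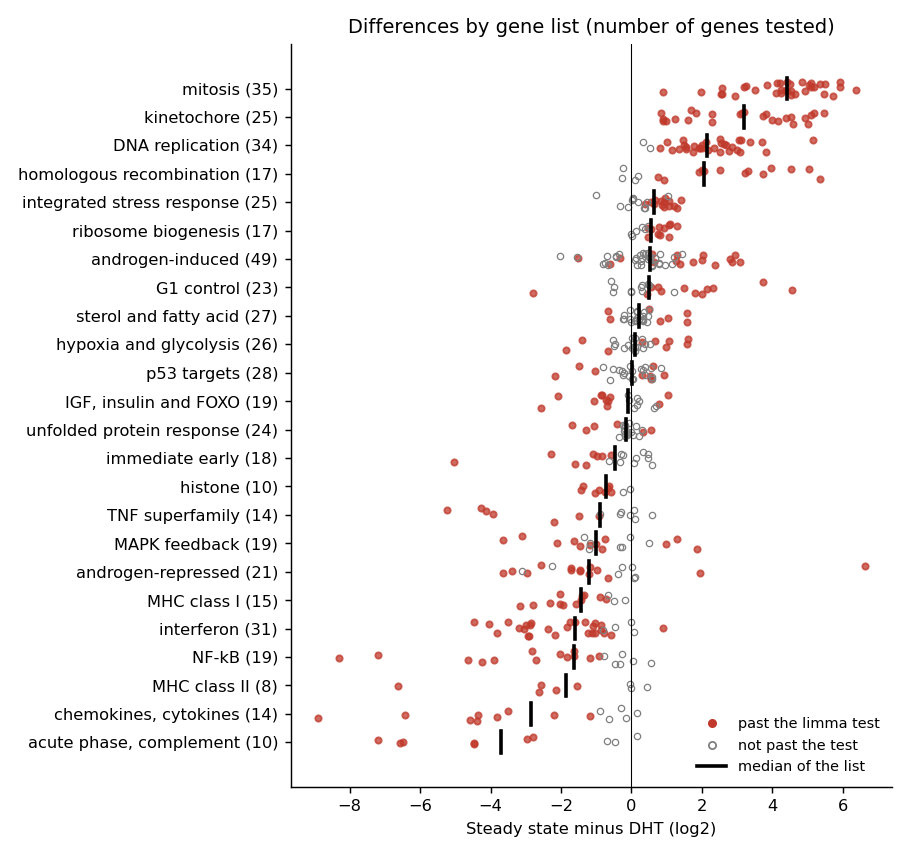
Steady state minus DHT (log2, x axis) for the tested members of 24 gene lists (number tested in brackets); filled points passed the limma test, open points did not, and the black bar is the median of the list. Mitosis, kinetochore and replication genes lie to the right (medians 4.43, 3.19 and 2.15) and the tested chemokine and acute phase genes to the left (medians -2.85 and -3.72, against -0.29 and -0.62 over all members measured).

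A minority of the chemokine and cytokine genes was low in serum-grown cells and high in deprived cells, with DHT or without. Of 29 members measured, 15 were too dim to be tested. Of the 14 tested, 9 passed, all lower in steady state, where 11.4% of the genes tested were lower. The median difference was -2.85, and -0.29 over all 29 measured. CCL20, a chemokine that draws dendritic cells and T cells, stood at 4.19 in steady state, 13.18 in deprived control and 13.09 with DHT. It was at least 177-fold lower in steady state, the largest such fall of all genes tested (deposited difference -8.90, SE 0.33, adjusted p = 3.70e-05). IL32, an inflammatory cytokine, stood at 5.53, 12.13 and 11.96 and was at least 80.9-fold lower (adjusted p = 1.30e-05). The neutrophil attractant CXCL8 stood at 3.97, 7.99 and 8.33 and was at least 6.52-fold lower (adjusted p = 3.00e-04). CXCL10 and CXCL11, both induced by interferon, stood at 5.30 and 3.13 in steady state and at 8.80 and 7.51 with DHT. The monocyte attractants CCL2 and CCL8 were at least 10.7-fold and 9.61-fold lower, and TNF at least 4.39-fold. The call of CCL2 was lost without the intensity trend (adjusted p = 0.0591). All of these were dim on the steady-state array, and the DHT array lay near the deprived control.

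The promoters of CCL20, IL32 and of the iron-binding acute phase gene LCN2 are shown because these genes fell most among the inflammation genes with an entry; they were chosen after their values were seen. Capitals mark matches to the NF-kB consensus, on either strand. LCN2 stood at 5.60, 12.93 and 12.80 and was at least 145-fold lower in steady state (adjusted p = 3.12e-06).
CCL20 (chr2:227813592-227813891, + strand): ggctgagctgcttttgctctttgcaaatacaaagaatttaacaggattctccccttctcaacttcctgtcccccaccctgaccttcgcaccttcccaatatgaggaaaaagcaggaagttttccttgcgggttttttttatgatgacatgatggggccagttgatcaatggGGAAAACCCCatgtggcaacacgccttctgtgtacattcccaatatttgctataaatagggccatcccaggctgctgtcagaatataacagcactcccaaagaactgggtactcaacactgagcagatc
IL32 (chr16:3065153-3065452, + strand): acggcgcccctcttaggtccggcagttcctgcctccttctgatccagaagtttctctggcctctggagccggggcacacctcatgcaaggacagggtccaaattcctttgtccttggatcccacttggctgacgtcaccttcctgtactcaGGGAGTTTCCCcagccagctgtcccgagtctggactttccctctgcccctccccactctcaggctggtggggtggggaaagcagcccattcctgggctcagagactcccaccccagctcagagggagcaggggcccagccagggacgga
LCN2 (chr9:128149203-128149502, + strand): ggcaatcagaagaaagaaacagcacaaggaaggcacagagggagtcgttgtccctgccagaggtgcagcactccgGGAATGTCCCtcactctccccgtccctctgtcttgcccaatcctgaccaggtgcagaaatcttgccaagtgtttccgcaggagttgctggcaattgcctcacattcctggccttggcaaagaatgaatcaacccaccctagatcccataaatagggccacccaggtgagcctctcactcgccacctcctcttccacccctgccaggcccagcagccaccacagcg

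The match lay at -79 in CCL20, at -175 in LCN2, and as 2 overlapping matches at -99 and -98 in IL32. Of the 8 chemokine and cytokine genes with a window, 5 (62.5%) held a match to the consensus, and of the 15 NF-kB feedback genes 7 (46.7%), against 12.9% of the windows of genes tested. The narrower, planned form of the NF-kB motif, with 1 open base, was present in 6 of the 15 NF-kB feedback windows. Over the windows of genes tested its share was 0.629%. This form was present in 1 of 8 chemokine and cytokine windows and in 0 of 6 acute phase windows. Among the promoters shown, only that of IL32 held it. The consensus was also present in 22.6% of the replication gene windows and at -12 and -11 in KLK3, genes that were higher in steady state.

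Genes that NF-kB induces and that mostly feed back on it were lower in steady state: 13 of 19 tested passed lower and none higher, with a median of -1.63, and -1.05 over all 24 measured. The share passing lower over all genes tested was 11.4%. Median levels of the list were 6.02 in steady state, 9.07 in deprived control and 9.30 with DHT. PTGS2, the inducible cyclooxygenase of prostaglandin synthesis, stood at 2.86, 11.32 and 11.15 and was at least 46.1-fold lower (deposited difference -8.29, SE 0.44, adjusted p = 8.60e-05). NFKBIZ, an inducible nuclear regulator of NF-kB, stood at 5.62, 10.38 and 10.25 and was at least 24.7-fold lower (adjusted p = 3.70e-05). TNFAIP3, the ubiquitin-editing inhibitor A20, stood at 5.42, 9.26 and 9.67 and was at least 16.5-fold lower (adjusted p = 3.70e-05). On the steady-state array all 3 were dim, which the deprived arrays were not. SOD2, the mitochondrial superoxide dismutase, was at least 12.8-fold lower. The subunit genes NFKB1 and NFKB2 differed by -1.84 (SE 0.36) and -2.82 (SE 0.24), and the inhibitor gene NFKBIA by -1.62 (SE 0.09). CD83 (-0.79, adjusted p = 0.051), BIRC2 (-0.33) and TNFAIP8 (0.57) were among those that did not pass.

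**Figure D3:**
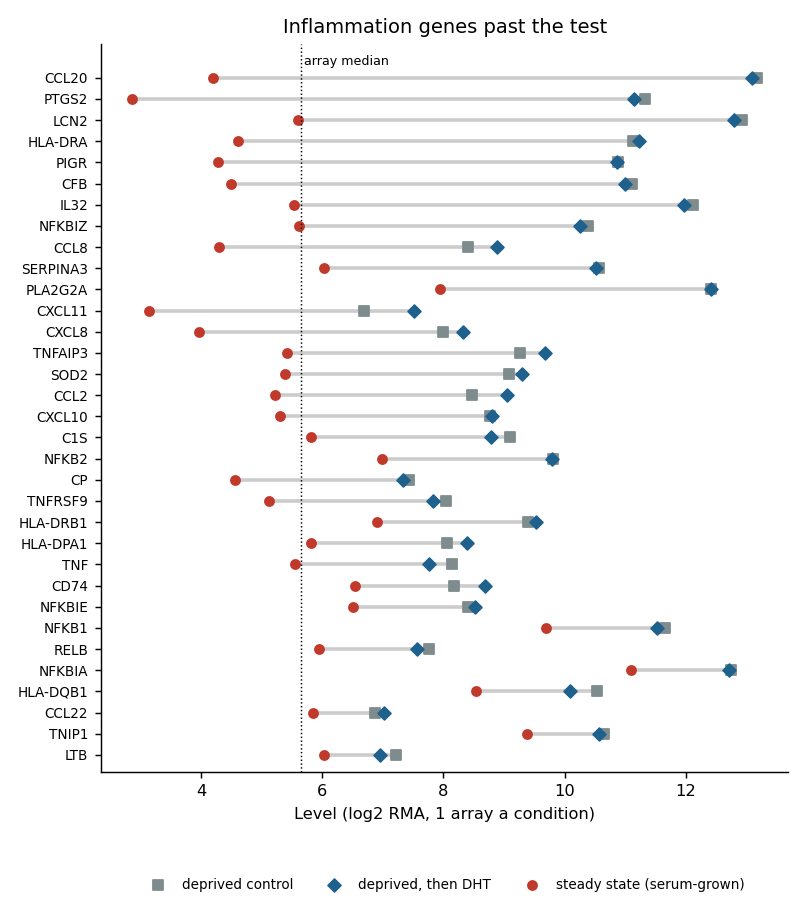
Levels (log2 RMA, x axis) of the chemokine, NF-kB, MHC class II and acute phase genes past the test on the 3 arrays of the inhibitor series, 1 array a condition; the dotted line is the mean of the 3 array medians. For CCL20, PTGS2 and LCN2 the 2 deprived arrays lie together at the right and the steady-state array at the left, at 4.19, 2.86 and 5.60.

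Acute phase and complement genes showed the same order, on a list made after values were seen. Of 10 tested, 7 were lower, where 11.4% of all genes tested were. The list median was -3.72, and -0.62 over all 16 measured. PIGR, which carries IgA across epithelia, stood at 4.29, 10.88 and 10.87, at least 37.9-fold lower, and CFB, complement factor B, stood at 4.50, 11.12 and 10.99, at least 41.3-fold lower. The other probe set of CFB differed by 0.29 and that of PIGR by -0.82, so the size depends on the probe set. SERPINA3, an acute phase protease inhibitor, stood at 6.03, 10.58 and 10.51 (difference -4.48, SE 0.27, adjusted p = 1.31e-04).

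Antigen presentation was lower in steady state as well. Of 15 MHC class I and antigen processing genes, 12 passed lower and none higher, where 11.4% of all genes tested passed lower. The list median was -1.43. HLA-B stood at 11.52, 13.56 and 13.54 (difference -2.02, SE 0.11, adjusted p = 1.04e-04). PSMB9, a subunit of the immunoproteasome, differed by -3.16 (SE 0.39), the peptide trimmer ERAP1 by -2.81 (SE 0.24) and tapasin, TAPBP, by -2.30 (SE 0.09). The probe sets of ERAP1 ranged from -2.81 to -0.15 and those of TAPBP from -3.14 to -0.31. TAP2, NLRC5 and ERAP2 did not pass. Of 8 tested MHC class II genes, again a list made after values were seen, 5 were lower, where 11.4% of all genes tested were. HLA-DRA stood at 4.61, 11.12 and 11.23 and was at least 48.5-fold lower (adjusted p = 1.69e-05), while CIITA, the regulator of class II transcription, was at 5.56, 5.57 and 5.69 and too low to be tested. HLA genes are alike in sequence, so reads of 1 locus by the probe set of another cannot be told apart.

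Interferon-stimulated genes followed: 26 of 31 tested were lower and 1, USP18, higher. Of all genes tested, 11.4% were lower and 13.4% higher. The list median was -1.61. IFIT3 stood at 5.28, 9.73 and 9.75 and was at least 17.5-fold lower (adjusted p = 3.70e-05). IFIT1 differed by -3.50 (SE 0.23) and IFIT2 by -3.20 (SE 0.24), and the transcription factor IRF1 was at least 6.93-fold lower. USP18, which removes ISG15 from proteins, stood at 8.80, 7.77 and 7.89 (difference 0.91, SE 0.20, adjusted p = 0.0182). MX1 stood at 6.48, 6.50 and 6.48 and OAS3 at 8.27, 8.21 and 8.18, and neither passed. Of 14 tested genes of the TNF superfamily, also a list made after values were seen, 7 were lower (11.4% of all genes tested were); TNFSF10, the death ligand TRAIL, stood at 5.98, 10.67 and 11.23 and was 37.8-fold lower (difference -5.24, SE 0.36, adjusted p = 2.31e-04).

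Markers of immune cells were low and were not tested. Of 6 immune markers measured (PTPRC, CD3D, CD3E, CD14, MS4A1 and LYZ), 4 were dim on all 3 arrays. The highest level of any was 6.06 in steady state, 6.27 in deprived control and 6.27 with DHT. Their summed level, the log2 of the sum of unlogged levels of all 6, was 7.54, 7.55 and 7.57 in the same order. The brightest markers weigh most in such a sum. Of 8 stromal markers 5 were dim on all 3, and the summed level was 9.18, 9.61 and 9.58. VIM, the intermediate filament of mesenchymal cells, stood at 6.77, 8.46 and 8.35 (difference -1.58, SE 0.19). The probe sets of VIM ranged from -1.58 to -0.20. Luminal markers, those of the labelled cell type, were present: 2 of 13 were dim on all 3 arrays, and the summed level was 14.96, 15.07 and 15.08. FOLH1, prostate-specific membrane antigen, was the 1 luminal gene of 11 tested that passed, lower in steady state. That count is near the 11.4% of all genes tested that passed lower. FOLH1 differed by -1.02 (SE 0.22), a call lost without the intensity trend. More luminal genes passed, in both directions, when the inhibitor-series pair was left out of the spread. Of 6 basal markers 4 and of 10 neuroendocrine markers 6 were dim on all 3 arrays.

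Androgen-induced genes mostly lay between the deprived and the serum-grown level after DHT. Of 49 tested, 37 were at a higher level in steady state than with DHT, and 34 had the order deprived control, DHT, steady state. That order also held for 23 of 35 mitosis and 25 of 34 replication genes, so it is not particular to this list. Its share over all genes tested was not counted. Among members dim on none of the arrays with a gap of at least 1, the median share of the gap covered did differ. It was 45.7% here, 1.77% for mitosis and 2.38% for replication. Among the androgen-induced genes, 13 passed the test against DHT higher (13.4% of all genes tested did) and 3 lower (11.4% did). Their median difference was 0.52. That median was 0.28 with the DHT level fitted from all 3 pairs. Median levels were 10.68 in steady state, 9.05 in deprived control and 9.62 with DHT. These counts hang on the spread: without the inhibitor-series pair in it they were 28 and 10, and without the sh-TOP2B pair 9 and 2. The list holds genes known from androgen studies in LNCaP cells, and it is not independent of these arrays.

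**Figure D4:**
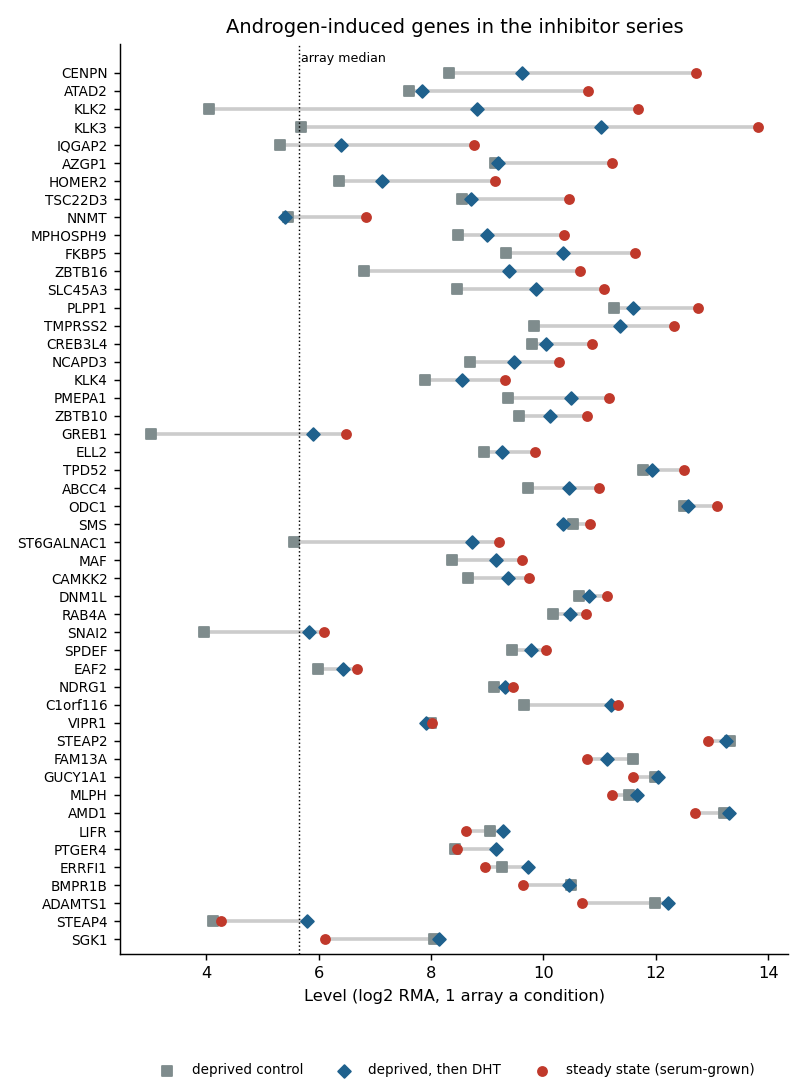
Levels (log2 RMA, x axis) of the 49 androgen-induced genes tested on the deprived control, DHT and steady-state arrays of the inhibitor series, 1 array a condition, ordered by steady state minus DHT; the dotted line is the mean of the 3 array medians. In most rows the DHT point lies between the others, near the steady-state point for C1orf116 and near the deprived control for AZGP1.

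The kallikreins were far higher with DHT than in the deprived control and still stood below their serum-grown level. KLK3 stood at 13.82 in steady state, 5.68 in deprived control and 11.02 with DHT. On the log2 scale DHT covered 65.6% of the gap between the others. The deprived level lies just above the array median of 5.66, so it is not dim by the rule, but the gap and the share are uncertain. KLK3 was 6.96-fold higher in steady state than with DHT (difference 2.80, SE 0.18, adjusted p = 1.94e-04). The 3 probe sets of KLK3 differed by 0.71 to 2.80, so the size depends on the probe set. In sh-control cells given DHT KLK3 stood at 13.80. KLK2 stood at 11.68, 4.04 and 8.82, with a dim level in the deprived control (difference 2.87, SE 0.62, adjusted p = 0.0182), and at 12.21 in sh-control cells given DHT. The call of KLK2 was lost without the intensity trend and with the median over its probe sets, which ranged from -0.05 to 3.11. The promoter of KLK3 is shown, chosen after its values were seen, with the androgen receptor half-site AGAACA in capitals, at -170 from the start.
KLK3 (chr19:50854665-50854964, + strand): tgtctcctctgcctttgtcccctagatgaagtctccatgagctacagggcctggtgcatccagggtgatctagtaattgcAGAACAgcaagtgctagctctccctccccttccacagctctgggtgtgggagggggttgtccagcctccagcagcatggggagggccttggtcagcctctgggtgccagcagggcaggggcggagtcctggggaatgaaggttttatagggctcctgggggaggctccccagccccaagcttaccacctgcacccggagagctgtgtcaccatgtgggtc

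The half-site was present in 3 of 36 androgen-induced windows (8.33%) and in 8.72% of the windows of genes tested, which is near the background share.

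Among the other induced genes, TMPRSS2, FKBP5 and ZBTB16 were partly restored. TMPRSS2, a serine protease gene of the prostate, stood at 12.32, 9.84 and 11.35 (difference 0.96, SE 0.33, adjusted p = 0.0792), which passed when the inhibitor-series pair was left out of the spread (adjusted p = 5.09e-05). FKBP5, a chaperone of steroid receptors, stood at 11.63, 9.33 and 10.34 (difference 1.30, SE 0.35, adjusted p = 0.0383), a call lost under 8 of 11 alternatives. ZBTB16, a zinc finger factor, stood at 10.64, 6.80 and 9.39 (difference 1.25, SE 0.17, adjusted p = 0.00341).

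AZGP1, TSC22D3 and ATAD2 lay near the deprived level after 16 h of DHT. AZGP1, a secreted zinc-binding glycoprotein, stood at 11.21, 9.13 and 9.19, with 2.96% of the gap covered (difference 2.02, SE 0.28, adjusted p = 0.00324). TSC22D3, the glucocorticoid-induced leucine zipper, stood at 10.46, 8.54 and 8.70, with 8.34% covered (difference 1.75, SE 0.17, adjusted p = 8.22e-04). ATAD2, a chromatin ATPase that is also tied to proliferation, stood at 10.79, 7.61 and 7.84, with 7.11% covered (difference 2.95, SE 0.54, adjusted p = 0.00943). DHT minus deprived was 0.69 for AZGP1 and 1.84 for ATAD2 in sh-control cells, against 0.06 and 0.23 in the inhibitor series. CENPN, a kinetochore gene that also stands on the androgen list, had the largest difference of the list, at 12.71, 8.32 and 9.62, with 29.7% covered (difference 3.08, SE 0.16, adjusted p = 7.99e-05). HOMER2 differed by 2.02 (SE 0.42), with 27.5% covered, and IQGAP2, dim in the deprived control, by 2.38 (SE 0.27). The probe sets of CENPN ranged from 0.32 to 3.08 and those of IQGAP2 from 0.00 to 2.38.

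C1orf116 and ST6GALNAC1 lay near the steady-state level. C1orf116 stood at 11.32, 9.66 and 11.19, with 92.5% of the gap covered, and ST6GALNAC1, a sialyltransferase, at 9.22, 5.56 (dim) and 8.74. Over the 23 members dim on none of the 3 arrays and with a gap of at least 1, the share covered ran from -16.8% to 92.5% with a median of 45.7%, and 9 members had covered more than 50%. ADAMTS1, AMD1 and SGK1 stood lower in steady state than in deprived cells. ADAMTS1, a secreted protease, stood at 10.68, 11.99 and 12.21 (difference -1.53, SE 0.12, adjusted p = 3.83e-04), and AMD1 of polyamine synthesis at 12.70, 13.21 and 13.30 (difference -0.60, SE 0.08). SGK1, a kinase gene, stood at 6.12, 8.05 and 8.15 and did not pass (difference -2.03, SE 0.60, adjusted p = 0.0515). Where the DHT effects of the 3 pairs differ, the SE is large by construction: for NDRG1 DHT minus deprived was 0.20 in the inhibitor series and 2.59 in sh-control cells, and its SE was 0.75.

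Androgen-repressed genes were mostly lower in steady state than after DHT: 12 of 21 tested passed lower and 2 higher, with a median of -1.19. Of all genes tested, 11.4% passed lower and 13.4% higher. SLC12A2, TMEM158 and PGM2L1 had been put on the list from these data. SLC12A2, a sodium, potassium and chloride cotransporter, stood at 9.52, 13.31 and 12.92 (difference -3.40, SE 0.09, adjusted p = 1.69e-05). IGFBP3, which binds insulin-like growth factors, stood at 7.47, 9.87 and 10.04 (difference -2.56, SE 0.16, adjusted p = 1.54e-04). SI, sucrase-isomaltase, stood at 4.76, 9.03 and 8.41 and was at least 6.88-fold lower (adjusted p = 0.00309). AMIGO2 (-3.12, SE 0.97, adjusted p = 0.0587) and OPRK1 (-2.25, SE 0.82) did not pass. HES6, a transcription factor gene, went the other way at 10.75, 7.88 and 8.80 (difference 1.95, SE 0.23, adjusted p = 0.00204). PEG3 had the largest rise of all genes tested, at 12.28 in steady state, 5.47 in deprived control and 5.64 with DHT, at least 98.7-fold (difference 6.64, SE 0.58, adjusted p = 5.99e-04). This imprinted zinc finger gene stood at 11.13 in deprived sh-control cells and at 9.66 with DHT there.

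Immediate early genes, which growth factors and stress induce within minutes, were lower in steady state in 8 of 18 tested and higher in none. Of all genes tested, 11.4% were lower. The median was -0.46, and -0.29 over all 23 measured. EGR1 stood at 4.54, 9.57 and 9.57 and was at least 15.4-fold lower (adjusted p = 3.71e-04), and FOS at 4.68, 7.30 and 6.96, at least 2.53-fold. KLF4 differed by -1.59 (SE 0.15); JUNB (-1.10, SE 0.28) and FOSL2 (-1.28, SE 0.27) lost their calls under at least 1 alternative. Of 19 tested genes of MAPK feedback, 9 passed lower and 3 higher, where 11.4% and 13.4% of all genes tested did. The count higher was near that share. The phosphatase DUSP5 stood at 5.24, 8.80 and 8.90, at least 9.65-fold lower (adjusted p = 0.00367), DUSP6 at 3.95, 7.44 and 7.07, and DUSP10 at 8.21, 10.46 and 10.33 (difference -2.12, SE 0.13). SPRY1 (1.87, SE 0.30), DUSP2 (1.29, SE 0.29) and DUSP4 (0.99, SE 0.22) were higher. Without the sh-control pair in the spread, 6 members passed lower and 2 higher, and the call of DUSP4 was lost.

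Of 25 tested genes of the integrated stress response and amino acid synthesis, 14 passed higher (13.4% of all genes tested did) and none lower. The median was 0.65. STC2 (1.40, SE 0.29), CHAC1 (1.30, SE 0.26), the serine synthesis gene PHGDH (1.22, SE 0.20), PCK2 (1.08, SE 0.17) and the folate enzyme MTHFD2 (1.07, SE 0.11) led it. DDIT3, which stress induces through ATF4, stood at 9.59, 9.53 and 9.56 and did not pass. Of 17 tested genes of ribosome biogenesis, 11 passed higher (13.4% of all genes tested did) and none lower, with a median of 0.55. POLR1B of RNA polymerase I stood at 9.76, 8.29 and 8.46 (difference 1.30, SE 0.17). The methyltransferase gene FBL stood at 12.03, 10.78 and 10.95 (difference 1.08, SE 0.14). The call of POLR1B was lost with the median over its probe sets.

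The lists of glycolysis and hypoxia, of sterol and fatty acid synthesis, of the unfolded protein response and of p53 targets had shares of calls that lay near those of all genes tested (13.4% higher, 11.4% lower) or moved with the pairs behind the spread. Of 26 tested genes of glycolysis and hypoxia, 6 passed higher and 3 lower, with 1 lower when the sh-control pair was left out and 6 lower when the inhibitor-series pair was. LDHA stood at 13.40, 12.28 and 12.33 (difference 1.07, SE 0.11, adjusted p = 0.00116). HK2 (1.58, SE 0.22) and PDK1 (1.60, SE 0.22) lost their calls with the median over probe sets, whose differences ranged from 0.37 and from 0.07 upward. EGLN3 (-1.84, SE 0.48) and ADM (-1.39, SE 0.39) were lower, calls lost under 4 and 5 alternatives. Of 27 tested genes of sterol and fatty acid synthesis, 5 passed higher and 2 lower, against 3 and 0 without the sh-TOP2B pair and 8 and 3 without the inhibitor-series pair. FASN, fatty acid synthase, stood at 11.52, 9.54 and 9.93 (difference 1.59, SE 0.23, adjusted p = 0.00417), and EBP at 10.29, 8.61 and 8.72 (difference 1.57, SE 0.13). The probe sets of FASN ranged from 0.19 to 1.59 and those of EBP from -0.45 to 1.57. HMGCS1, INSIG1 and SQLE did not pass, with differences of 0.16, 0.17 and 0.31. Of 24 tested genes of the unfolded protein response, 2 passed higher and 4 lower, with 0 higher without either sh pair and 6 lower without the inhibitor-series pair. HSPA5, its main chaperone, stood at 13.38, 13.58 and 13.57.

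Of 19 tested genes of IGF, insulin and FOXO signalling, 9 passed lower and 2 higher, where 11.4% and 13.4% of all genes tested did. The count higher was near that share. The list median was -0.09. It was -0.32 with the median over probe sets and -0.57 with the DHT level fitted from all 3 pairs. PIK3IP1, an inhibitor of the PI3 kinase, was lower in steady state (difference -2.07, SE 0.35, adjusted p = 0.00718), and CCNG2, a FOXO target, at 11.92, 13.09 and 12.98 (difference -1.06, SE 0.10). FOXO1 (-0.84, SE 0.20), FOXO3 (-0.69, SE 0.14) and the insulin receptor gene INSR (-0.66, SE 0.15) were lower, calls each lost under at least 1 alternative, and IGFBP2 was higher by 1.04 (SE 0.17). Of 28 p53 targets, 5 passed higher and 3 lower, near the 13.4% and 11.4% of all genes tested, with a median of 0.03 that was -0.03 after centring on control probe sets. PLK2 (-2.18, SE 0.17) and the death receptor gene FAS (-1.48, SE 0.26) were lower, and MDM2 (0.52, SE 0.10) and BAX (0.60, SE 0.16) higher, calls lost under 3 and 5 of 11 alternatives. The probe sets of FAS ranged from -1.59 to 0.08. The p53 counts ranged from 2 to 9 higher and from 3 to 7 lower when 1 pair was left out of the spread.

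The sorted, transfected cells of the other series were deprived in the same way, yet their mitosis genes were not at the level of the deprived cells here. The median level of the 35 mitosis genes was 9.07 in deprived sh-control cells and 9.36 with DHT, against 5.95 and 6.03 in the inhibitor series and 10.50 in steady state. For the replication genes the medians were 8.97 and 9.59, against 6.98, 7.01 and 9.78. NF-kB feedback genes, at 9.13 and 8.58 in sh-control cells, lay close to the deprived arrays of the inhibitor series and not to the steady-state array at 6.02. With DHT the androgen-induced genes reached a median of 11.57 in sh-control cells, above the 10.68 of steady state and the 9.62 of DHT in the inhibitor series. Transfection, sorting, RNA quality and series cannot be told apart in these values, and levels across the series were not tested.

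**Figure D5:**
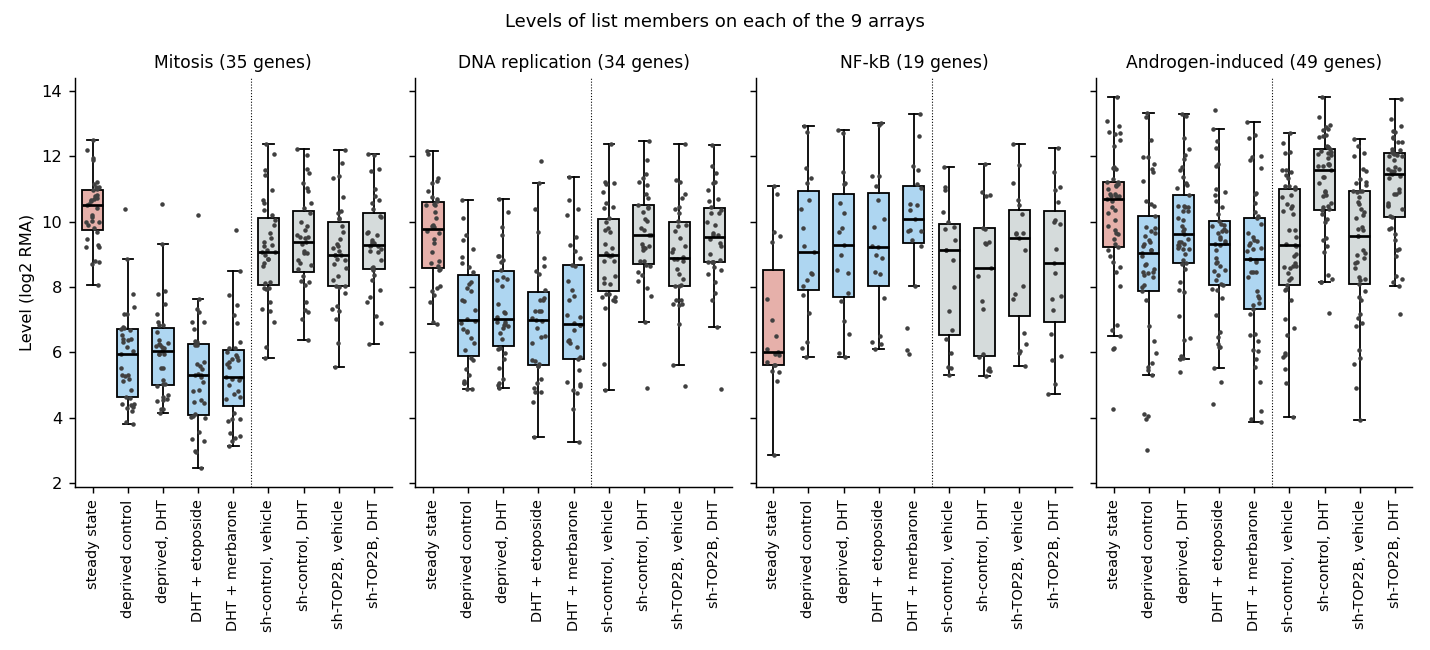
Levels (log2 RMA, y axis) of the tested mitosis, replication, NF-kB and androgen-induced genes on each of the 9 arrays (1 array a group); points are genes, boxes show the quartiles and the median, whiskers reach to the last point within 1.5 box lengths, and the dotted line separates the inhibitor series from the sorted shRNA cells. The steady-state array is highest for mitosis genes (median 10.50) and lowest for NF-kB genes (median 6.02).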

How the data were processed

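RNA of LNCaP cells was measured on Affymetrix U133 Plus 2.0 arrays, 9 in all and 1 for each group. The authors deposited log2 values made with RMA, per the submitters' processing notes; no source used here gives further steps or versions. Of 54675 probe sets, 41097 carried 1 gene symbol, 1801 several and 11777 none in the platform annotation. The probe set with the highest mean stood for each of 19775 genes, and the 11865 genes with a mean at or above the 40th percentile were tested. Differences and SEs are those of that probe set, and other probe sets of the same gene can differ from it. Symbols were matched to, and promoter windows taken from, RefSeq tables (GRCh38.p14). Some genes are not reported here.

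Differences were tested with limma 3.58.1 in R 4.3.3, with Benjamini-Hochberg adjustment over all genes tested. The model held a block for each of the 3 series (inhibitor, sh-control, sh-TOP2B), 1 DHT term and 1 term each for steady state, etoposide and merbarone, which leaves 2 residual degrees of freedom, moderated with an intensity trend. The lone arrays are assumed to vary like those of the 3 DHT pairs. Separate cultures are not named in the labels; the p-values then cover no more than the variation among these arrays, which may be technical. The number of arrays limits the precision, and the median SE was 0.20. The fit was tested on data simulated from its own model, which cannot check how the lone arrays vary. The members, 27 gene lists and tests were chosen with earlier results of these data known, and 8 further lists after the values were seen.

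Genes were named by a rule: the 12 largest rises and falls past the test, the 5 members of each list with the largest difference (dim levels raised to the array median), and KLK2, KLK3, TMPRSS2, FKBP5, TOP2A, TOP2B, MKI67, CDKN1A, MYC and CCND1. Genes outside the rule were chosen after their values were seen. Alternatives covered the filter, the trend, robust moderation, the choice of probe set, centring, quantile normalization, each pair left out and a DHT level fitted from all pairs.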

Additional observations from a re-analysis of the deposited data

How the results depend on the processing

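No paired analysis was possible because each group has 1 array and the labels give no replicate numbers. Leaving 1 DHT pair out of the spread moved the count of genes past the test from 2945 to between 1897 (without the sh-TOP2B pair) and 4446 (without the inhibitor-series pair), and those higher in steady state from 1595 to between 946 and 2455; the cause was not tested. The other settings gave 2065 (no intensity trend) to 3433 (DHT level fitted from all 3 pairs). Centring on control probe sets shifted the median difference by -0.06 and put 45.9% of the calls higher, against 54.2%.

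Of 144 list medians under the alternatives, 25 moved, and 1 changed sign: that of the p53 targets was 0.03 and became -0.03 after centring on control probe sets. With the median over probe sets they were 4.13 for mitosis, -0.97 for NF-kB feedback, -1.31 for interferon, -0.36 for MAPK feedback, -0.32 for IGF and insulin, -1.30 for MHC class II, -3.28 for acute phase, 2.75 for kinetochore and -1.29 for the TNF superfamily. Raising dim levels to their array's median gave 4.23 for mitosis, -2.01 for chemokines and -1.31 for interferon. Over all measured members they were -0.29 for chemokines, -1.05 for NF-kB feedback, -1.23 for interferon, -0.80 for MAPK feedback, -0.62 for MHC class II, -0.62 for acute phase, 3.83 for kinetochore and -0.54 for the TNF superfamily, since more dim genes enter. With the fitted DHT level they were 0.28 for androgen-induced genes, -2.49 for chemokines, -1.35 for interferon and -0.57 for IGF and insulin, and quantile normalization gave -3.07 for chemokines.

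Of 166 named genes tested, 140 passed; 110 of them did so in every one of the 11 alternatives that tested them (some tested 9 or 10 times) and 30 lost the call in at least 1. Of the 26 that did not pass, 14 did in at least 1. PHLDA2, lower by a difference of -0.71, reversed to 0.35 with the median over probe sets; the cause was not tested. Dim levels limit the size of many differences, which are then bounds.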

Other observations

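Several of the largest falls belonged to genes on none of the inflammation, cell cycle or androgen lists. FEZ1, a gene of axon growth, stood at 4.44 in steady state, 12.31 in deprived control and 12.27 with DHT, at least 99.8-fold lower in steady state (adjusted p = 1.17e-04), while its other probe set differed by -1.22. In deprived sh-control cells it stood at 7.08. KRT20, a keratin of intestinal and urothelial cells, stood at 4.24, 12.01 and 11.88, at least 76.4-fold lower, whereas KRT8 and KRT18, the luminal keratins, did not pass (-0.51 and -0.08). In sh-control cells KRT20 stood at 5.35 without DHT and 4.37 with it. MAN1A1, a mannosidase of the Golgi, stood at 5.20, 12.24 and 11.78, at least 71.4-fold lower (adjusted p = 0.00162). SEMA3C, a secreted guidance factor, stood at 8.26, 13.50 and 13.37, 34.5-fold lower (SE 0.21). In sh-control cells DHT minus deprived was -1.29 for FEZ1, -0.97 for KRT20, -2.83 for MAN1A1 and -0.49 for SEMA3C. In the inhibitor series it was -0.04, -0.13, -0.45 and -0.12 in that order.

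Of 12 tested genes of DHT synthesis and inactivation, a list made after the values were seen, 2 passed higher and 3 lower, where 13.4% and 11.4% of all genes tested did. Without either sh pair 1 passed lower, and without the inhibitor-series pair 5. CYP3A5, a steroid-oxidising enzyme, stood at 3.83, 8.88 and 8.46, at least 7.14-fold lower in steady state (adjusted p = 2.26e-04). The probe sets of CYP3A5 ranged from -4.82 to -0.51. HSD17B10 was higher by 0.78 (SE 0.11). UGT2B17, which glucuronidates DHT, stood at 10.60, 9.38 and 10.59 and did not pass. Of 8 tested imprinted genes, also a list made after the values were seen, PEG3 passed higher and GRB10 and PHLDA2 lower. The count higher was near the 13.4% of all genes tested, of which 11.4% passed lower. PHLDA2 lost its call under 4 of 11 alternatives.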
